A study of Mus musculus with 10 samples.

Results

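The 8 dual-specificity MAPK phosphatase genes Dusp1, Dusp2, Dusp4, Dusp5, Dusp6, Dusp7, Dusp10 and Dusp16 were followed across naive and germinal centre (GC) B cells of the mouse. They were taken by name from 18194 gene symbols that have a probe set of their own, and each is shown by its brightest probe set, the one whose mean over all 10 arrays is highest. The arrays, Affymetrix mouse whole-genome arrays, hold 3 groups of sorted splenic B cells. The naive group (n = 4) came from unimmunized Balb/c mice. The GC B1-8 group (n = 3) came from Balb/c background mice with the VH186.2 heavy chain transgene and a deleted JH locus, and the GC V23 group (n = 3) from mice with the V23 transgene and the same deletion. Both GC groups were sorted as λ+ PNA+ B220+ cells 14 days after intraperitoneal NP-CGG, a hapten on a carrier protein, at 50 µg in alum. The naive mice differ from both GC groups in immunization, transgene, JH deletion and sort stain, which cannot be told apart, and the labels give no ages and do not say whether replicates are separate animals, so that p-values may measure technical spread alone.

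MAP kinases are switched on by phosphorylation of a threonine and a tyrosine in their activation loop, and the phosphatases of this family remove both. Many are transcribed in response to the kinases they switch off, which makes them feedback inhibitors and readouts of the pathway as well. In B cells the antigen receptor activates ERK through Ras, and also JNK and p38. Dusp1, Dusp2, Dusp4 and Dusp5 encode inducible nuclear phosphatases, of which the Dusp5 product acts on ERK. Dusp6 and Dusp7 encode cytoplasmic phosphatases selective for ERK, and Dusp10 and Dusp16 encode phosphatases directed at JNK and p38.

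RefSeq promoter sequence (GRCm38.p6) matched 7 of the 8 genes, and Dusp4 was not among them. The 250 bases before the listed start site are shown for Dusp5 and Dusp16, which had the largest rise and the largest fall of the 8, and for Dusp1, the classic immediate early member. Capitals mark matches to TGACG, the core of the cyclic AMP response element, on either strand, and to the CArG box, the binding sequence of serum response factor.
Dusp5, chr19:53528895-53529144, plus strand: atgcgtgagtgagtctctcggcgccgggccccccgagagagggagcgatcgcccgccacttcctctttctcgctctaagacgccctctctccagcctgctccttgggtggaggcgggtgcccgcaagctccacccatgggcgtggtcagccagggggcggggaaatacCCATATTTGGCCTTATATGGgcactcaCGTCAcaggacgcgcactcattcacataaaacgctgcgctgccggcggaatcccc
Dusp16, chr6:134792629-134792878, minus strand: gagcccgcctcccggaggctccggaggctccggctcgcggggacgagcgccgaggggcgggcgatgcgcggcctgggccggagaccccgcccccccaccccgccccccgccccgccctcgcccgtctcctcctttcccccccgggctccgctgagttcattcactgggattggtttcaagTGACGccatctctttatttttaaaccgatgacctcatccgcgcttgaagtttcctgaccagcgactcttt
Dusp1, chr17:26508473-26508722, minus strand: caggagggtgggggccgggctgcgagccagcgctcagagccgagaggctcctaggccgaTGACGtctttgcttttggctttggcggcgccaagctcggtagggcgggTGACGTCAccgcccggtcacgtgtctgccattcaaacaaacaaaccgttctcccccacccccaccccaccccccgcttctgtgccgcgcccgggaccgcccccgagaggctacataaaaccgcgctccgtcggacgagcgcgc
In the Dusp5 window 2 CArG boxes stand end to end, at bases -82 to -73 and -72 to -63 from the start site. A CArG box was found in 1 of the 7 windows of these genes and in 1.5% of 32851 RefSeq windows of that length. TGACG was found in 3 of the 7 (Dusp1, Dusp5 and Dusp16) and in 17.8% of all windows, and in Dusp1 a forward and a reverse match overlap to form TGACGTCA. CACGTG, the E-box of Myc and Usf proteins, was found in 2 (Dusp1 and Dusp2; 6% of all windows), and GGCGGG, a core of the Sp1 motif, in 6 (32.5%), with a pair that shares 1 base in Dusp16. TGANTCA, the AP-1 motif (6.7% of all windows), and CCGGAA, an Ets core (12%), were found in 0 of the 7. The 7 windows held 56.4% to 77.2% G and C, against a median of 52.4% over all windows. These matches describe letters only.

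All 8 genes lay above log2 4 on every array and entered the test, a limma model of the 3 group means over 17204 genes with Benjamini-Hochberg adjustment. Levels are log2 signals ± SD, and differences are log2 fold changes ± SE. When the GC groups were averaged and set against naive cells (the pooled comparison), 3 of the 8 rose (Dusp2, Dusp5, Dusp10) and 5 fell (Dusp1, Dusp4, Dusp6, Dusp7, Dusp16), with a median difference of -0.58. Among all genes tested 20.5% rose and 21% fell, with a median of 0.06. In GC B1-8 against naive 3 rose and 2 fell (all genes: 16.4% and 17.3%), and in GC V23 against naive 3 rose and 5 fell (18.2% and 19.7%). Both comparisons use the same 4 naive arrays. Without naive replicates 2 and 4, which stand apart as described below, the counts were 2 higher and 4 lower for both GC groups, 2 and 4 for GC B1-8, and 2 and 5 for GC V23. The 4 genes Dusp4, Dusp5, Dusp10 and Dusp16 kept their call against naive in each line under each of 20 alternative analyses, whereas the calls of Dusp1, Dusp2 and Dusp7 and the pooled call of Dusp6 did not hold in all of them.

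**Figure D1:**
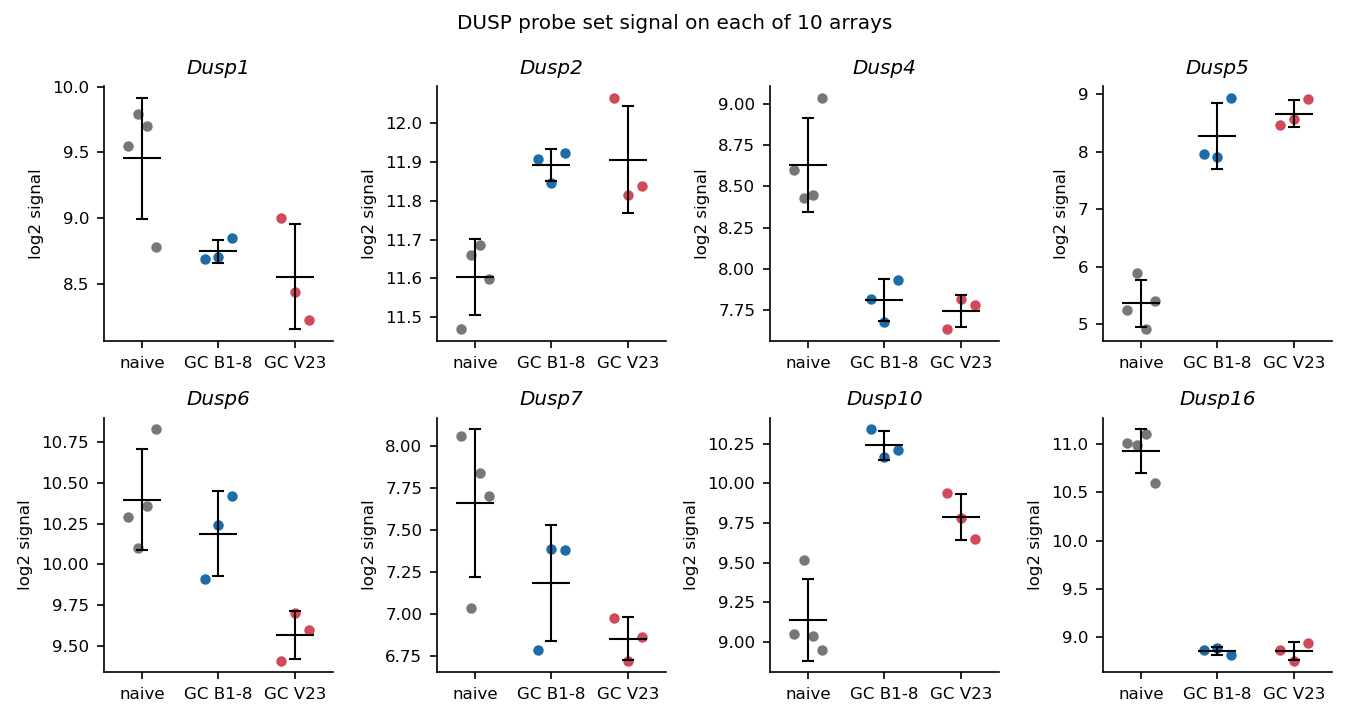
Log2 signal of each gene's probe set (vertical axis, a scale of its own in each panel) on the 4 naive, 3 GC B1-8 and 3 GC V23 arrays. Points are arrays, and the bar is the group mean ± SD. Dusp2, Dusp5 and Dusp10 lie higher and Dusp4 and Dusp16 lower on all 6 GC arrays than on any naive array. For Dusp2 and Dusp10 the gap is as little as 0.13 (log2). The share of all genes that separate in this way is not given.

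Arrays of a group correlated across genes at a mean r of 0.953 to 0.956. The 5 measured GC markers (Bcl6, Fas, Gcsam, Mybl1, S1pr2) rose in both lines and had a list mean of 11.91 to 12.06 on GC arrays against 8.08 to 9.80 on naive arrays, where replicates 2 (9.80) and 4 (9.01) were highest. Of 5 measured B cell markers 2 fell (Cd79a and Pax5) and 0 rose in the pooled comparison (0 also at an unadjusted p under 0.05), and their list mean was 13.32 to 13.48 on naive, 12.91 to 13.16 on B1-8 and 12.61 to 12.98 on V23 arrays, lower on every GC array. The Cd79a call ended in 8 of 19 alternatives, among them without any 1 naive array or without B1-8 replicate 3. All 8 neutrophil markers rose: their summed signal was 2702 to 13941 on naive arrays, 59799 to 61823 on GC B1-8 and 37919 to 56367 on GC V23 arrays. Of 6 T cell markers 2 fell (Cd3d and Lat; the Cd3d call ended in 14 of 19 alternatives, including the removal of naive replicate 2, 3 or 4, B1-8 replicate 1 or 3, or V23 replicate 2 or 3), with a summed signal of 1401 to 2222 on naive, 1139 to 1442 on B1-8 and 778 to 1127 on V23 arrays. Of 5 macrophage markers 1 rose (Lyz2) and 1 fell (C1qb, not called with naive replicates 2 and 4 left out), and their sums were 1658 to 4926, 5426 to 5811 and 3415 to 5493. These sums weigh the brightest gene most, Lyz2 (10.13 ± 0.87 in naive, 12.12 ± 0.06 in B1-8, 11.79 ± 0.42 in V23). The others were at -1.44 (C1qb), -0.77 (Csf1r), -0.38 (Cd68) and -0.02 (Adgre1) in the pooled comparison. The list mean was 8.23 to 9.50 on naive, 8.67 to 8.97 on B1-8 and 8.17 to 8.42 on V23 arrays. Naive replicate 4 was the naive array highest in all of these 3 lists, and no marker is listed at 0. The 3′ minus 5′ difference of the Actb control probe sets, a measure of RNA integrity, was 1.27 to 1.65 on naive, 0.81 to 1.19 on B1-8 and 0.71 to 0.87 on V23 arrays. These quantities move with the groups compared for every gene below, and their part in the differences was not tested. In bulk samples fewer cells that express a gene cannot be told apart from less RNA per cell.

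Dusp5, the nuclear ERK phosphatase, had the largest rise. Its log2 signal was 5.24, 5.89, 4.91 and 5.41 on the naive arrays, 7.97, 7.91 and 8.94 on GC B1-8, and 8.47, 8.58 and 8.92 on GC V23 arrays. Every GC array lay above every naive array, by at least 2.02 (log2), and the lines overlapped. Dusp5 rose by 2.91 ± 0.30 in GC B1-8 (7.52-fold, adjusted p = 0.000166) and by 3.30 ± 0.30 in GC V23 (9.82-fold, adjusted p = 6.43e-05). The rise ranged from 2.94 to 3.39 over 19 alternatives of the pooled comparison. Dusp5 has 1 probe set under its symbol alone, as do Dusp1, Dusp2, Dusp4 and Dusp6, so agreement between probe sets could not be examined for these genes. The Dusp5 promoter is the window with adjoining CArG boxes shown above, and binding there was not measured.

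Dusp4, an inducible nuclear phosphatase of ERK and JNK, went the other way. Its signal was 8.60, 8.43, 8.45 and 9.04 on naive arrays, 7.82, 7.68 and 7.93 on B1-8, and 7.63, 7.82 and 7.78 on V23 arrays. The GC arrays all lay below the naive arrays and the lines were interleaved. Dusp4 fell by 0.82 ± 0.16 in B1-8 (adjusted p = 0.00381) and fell by 0.89 ± 0.16 in V23 (adjusted p = 0.00219), less than 2-fold in both.

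Dusp2, a nuclear phosphatase first known from activated lymphocytes, had the smallest difference of the 8 in V23 and in the pooled comparison. Signals were 11.47, 11.66, 11.69 and 11.60 on naive arrays, 11.91, 11.85 and 11.92 on B1-8, and 12.07, 11.81 and 11.84 on V23 arrays. The 6 GC arrays all lay above the naive arrays, but by as little as 0.13 (log2). Dusp2 rose by 0.29 ± 0.10 in B1-8 (1.22-fold, adjusted p = 0.0492) and by 0.30 ± 0.10 in V23 (1.23-fold, adjusted p = 0.0373), and these calls ended in 16 and 13 of 20 alternatives. Quantile normalization reduced the differences to 0.18 in each (adjusted p = 0.191 in both). The B1-8 call was lost without any 1 array other than V23 replicate 1 (adjusted p = 0.0597 to 0.12), and the V23 call without naive replicate 1, 2 or 4, any B1-8 replicate, or V23 replicate 1 or 3 (0.0515 to 0.118). The pooled rise of 0.30 ± 0.08 (adjusted p = 0.0185) was lost in 4 of 19 alternatives, among them on leaving out naive replicate 1 (0.0601), on leaving out replicates 2 and 4 of that group (0.0728) and with quantile normalization (0.116).

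Dusp1, the nuclear phosphatase that responds to stress and growth factors and acts on p38, JNK and ERK, was lower in GC cells with 1 naive array as an exception. Signals were 9.54, 9.79, 9.70 and 8.78 on naive arrays, 8.69, 8.71 and 8.85 on B1-8, and 9.0, 8.44 and 8.23 on V23 arrays. Naive replicate 4 thus lay within the GC range of 8.23 to 9.0. Dusp1 was at -0.71 ± 0.27 in B1-8 (adjusted p = 0.0763, not called) and fell by 0.90 ± 0.27 in V23 (adjusted p = 0.0279). Without naive replicate 4 the B1-8 difference was -0.93 (adjusted p = 0.00878), and with both 2 and 4 left out it was -0.88 (0.0315). The V23 call ended without naive replicate 1, 2 or 3 (0.0633 to 0.0685), without V23 replicate 2 (0.0853) or 3 (0.1), and with quantile normalization (0.104) or median centring (0.0788), and when naive and V23 arrays were fitted alone (0.0602). The pooled fall of 0.80 ± 0.23 (adjusted p = 0.0201) also ended without naive replicate 1, 2 or 3 (0.0541 to 0.0606), with quantile normalization (0.0777) and with median centring (0.0564).

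A list of 11 genes that cell handling and heat shock induce was set beside Dusp1. Of these 6 fell and 0 rose in the pooled comparison (limma; 1 higher at an unadjusted p under 0.05), among them Ier2 at -1.24 ± 0.09, Jun at -1.22 ± 0.14 (-2.43 where its probe sets were averaged), Atf3 at -1.83 ± 0.44 and Zfp36 at -0.59 ± 0.08. With naive replicate 4 left out, alone or together with replicate 2, 10 of the 11 fell. The list mean was 9.48 to 10.54 on naive arrays, lowest on replicate 4, against 9.10 to 9.25 on B1-8 and 9.11 to 9.29 on V23 arrays. The heat shock gene Hspa1b was at 7.25 on naive replicate 4 and at 10.11, 11.76 and 10.50 on the other naive arrays. Not every gene of the list followed Dusp1 on that array. Ier2 was highest there (11.31, against 11.04, 11.01 and 11.29). Hspb1 was also highest there (8.10, against 8.00, 7.94 and 7.92), and Junb (8.94) lay above naive replicates 1 and 2 (8.67 and 8.57). The other genes of the list were lowest on that array among the naive arrays, though Jun and Zfp36 by a small margin. Jun was at 8.45 against 8.62, 8.63 and 8.66, and Zfp36 at 12.01 against 12.07, 12.15 and 12.02. Cells had been kept at 4°C with azide, and the part of handling in the Dusp1 difference was not tested.

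**Figure D2:**
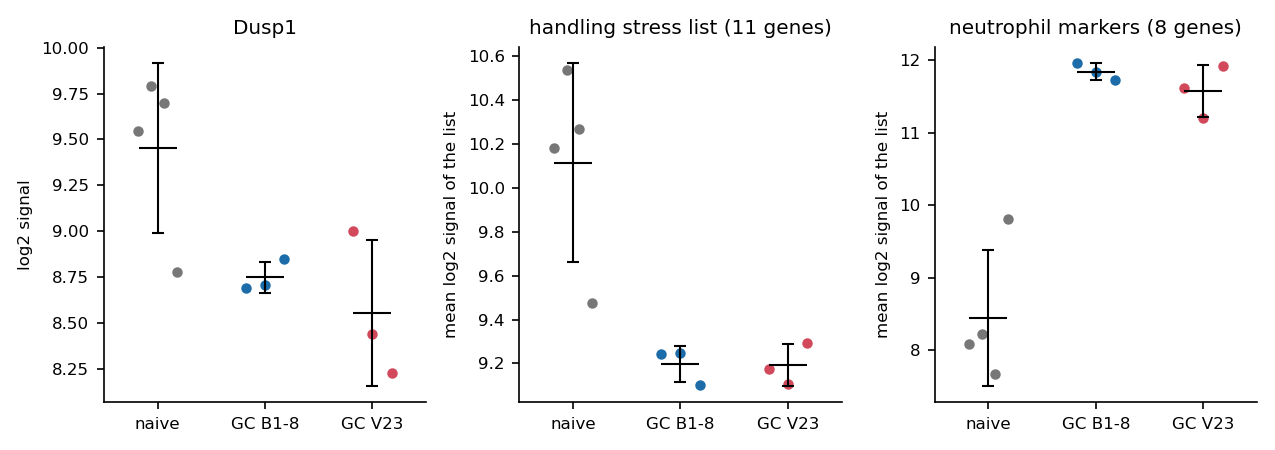
Log2 signal of Dusp1 (left), mean log2 signal of 11 handling stress genes (middle) and of 8 neutrophil markers (right) on each array, with group means ± SD. The naive array lowest in Dusp1 (8.78) and in the stress list (9.48) is replicate 4, which is also the naive array highest in neutrophil markers (9.82).

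Dusp6, the cytoplasmic ERK phosphatase that serves as a common readout of ERK activity, differed from naive cells in V23 alone by the test, although that does not show a difference between lines. Naive arrays were at 10.29, 10.10, 10.36 and 10.83, B1-8 arrays at 9.91, 10.24 and 10.42, and V23 arrays at 9.41, 9.70 and 9.60. The 3 V23 arrays lay below all others, while B1-8 overlapped naive. Dusp6 fell by 0.83 ± 0.19 in V23 (adjusted p = 0.00865; 0.000632 to 0.0343 over 20 alternatives) and was at -0.21 ± 0.19 in B1-8 (adjusted p = 0.458, 95% interval -0.64 to 0.23). The pooled fall of 0.52 ± 0.16 (adjusted p = 0.031) ended in 10 of 19 alternatives, among them the loss of naive replicate 1, 3 or 4, B1-8 replicate 1 or 2, or V23 replicate 1 or 3 (0.0511 to 0.0632), leaving out naive replicates 2 and 4 together (0.0709), and quantile normalization (0.0561).

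Dusp7, the other cytoplasmic ERK phosphatase, has probe sets that share a direction in B1-8 and in the pooled comparison but not in V23. Its probe set 1427416_x_at, of a class that can share sequence with other genes, was at 8.06, 7.03, 7.84 and 7.70 on naive, 6.79, 7.39 and 7.38 on B1-8, and 6.97, 6.72 and 6.86 on V23 arrays. V23 lay below all naive arrays, and B1-8 overlapped both groups. Dusp7 fell by 0.81 ± 0.25 in V23 (adjusted p = 0.0337) and was at -0.47 ± 0.25 in B1-8 (adjusted p = 0.191; 0.0294 with naive replicate 2 left out, and 0.0395 with both 2 and 4 left out). The V23 call ended in 9 of 20 alternatives (0.0596 to 0.103), among them without naive replicate 1, 3 or 4 or any V23 replicate, and with quantile normalization (0.073) or median centring (0.0597). The pooled fall of 0.64 ± 0.21 (adjusted p = 0.0401) ended in 10 of 19 alternatives (0.0551 to 0.121), among them without naive replicate 1, 3 or 4, B1-8 replicate 1 or any V23 replicate and with quantile normalization (0.1) or median centring (0.0671).

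Dusp7 has 3 probe sets in all. Naive arrays averaged 6.86 ± 0.41 with 1452097_a_at, B1-8 arrays 6.35 ± 1.08 and V23 arrays 6.97 ± 0.72, a pooled difference of -0.20 ± 0.44. Its difference was -0.50 ± 0.52 in B1-8 and 0.11 ± 0.52 in V23, so its direction in V23 is not settled. With 1460393_a_at the means were 5.98 ± 0.48, 5.17 ± 1.17 and 4.11 ± 1.17, with 2 of 6 GC arrays below log2 4, where values carry little order. With values raised to log2 4 its mean lay lower by at least 1.16 in the pooled comparison. B1-8 replicate 1 (6.52) nevertheless lay above every naive array (5.54 to 6.40). Without that floor this probe set was not called (limma, adjusted p over probe sets = 0.0874).

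The phosphatases directed at JNK and p38 moved in opposite directions. Dusp10 was at 9.05, 9.52, 9.04 and 8.95 on naive arrays, 10.34, 10.17 and 10.21 on B1-8, and 9.94, 9.78 and 9.65 on V23 arrays. The 3 groups did not overlap: B1-8 was highest, V23 intermediate and naive lowest. Dusp10 rose by 1.10 ± 0.15 in B1-8 (2.14-fold, adjusted p = 0.000621) and by 0.65 ± 0.15 in V23 (1.57-fold, adjusted p = 0.00843). Its other probe set, 1417163_at, showed differences of 0.99 ± 0.22 and 0.66 ± 0.22, but there the groups overlapped: naive arrays were at 7.02 to 7.47, B1-8 at 7.87 to 8.34 and V23 at 7.39 to 8.17.

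Dusp16, whose product acts mainly on JNK, had the largest fall. Naive arrays were at 11.02, 10.99, 11.11 and 10.59, B1-8 arrays at 8.87, 8.89 and 8.81, and V23 arrays at 8.86, 8.75 and 8.94. All GC arrays fell within 0.19 (log2) of each other and lay at least 1.66 below the lowest naive array, again replicate 4. Dusp16 fell by 2.07 ± 0.13 in B1-8 (4.21-fold, adjusted p = 1.82e-05) and fell by 2.08 ± 0.13 in V23 (4.22-fold, adjusted p = 1.14e-05).

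The other Dusp16 probe set, 1440615_at, had the larger difference. It was at 8.20, 8.29, 8.51 and 7.73 on naive arrays, 5.77, 4.39 and 3.17 on B1-8, and 2.36, 1.03 and 2.26 on V23 arrays, with 4 of 6 GC values below log2 4. With values raised to log2 4 it lay lower by at least 3.46 in B1-8 and by at least 4.18 in V23. With both probe sets averaged and low values so raised, Dusp16 lay lower by at least 2.77 in B1-8, 3.13 in V23 and 2.95 in the pooled comparison.

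**Figure D3:**
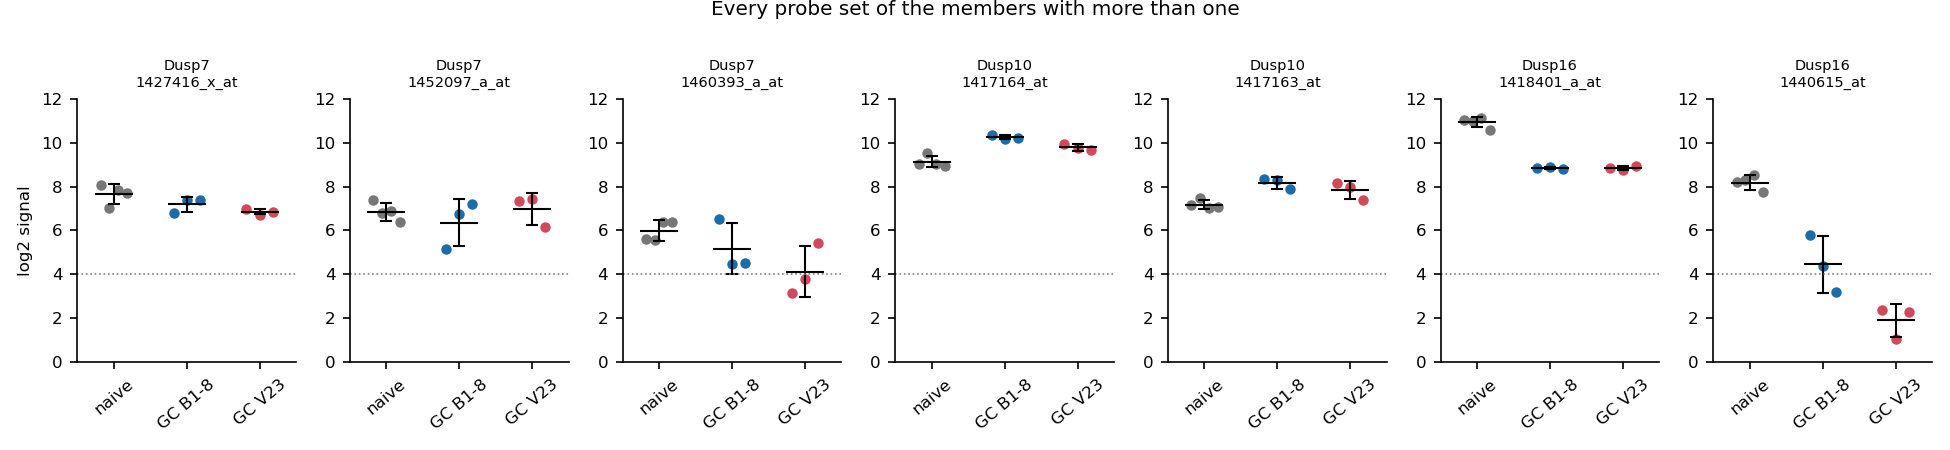
Log2 signal on each array for every probe set of Dusp7, Dusp10 and Dusp16, with group means ± SD; the dotted line marks log2 4. Group means of both Dusp10 probe sets are higher and those of both Dusp16 probe sets lower in GC cells, with V23 replicate 3 (7.39) below naive replicate 2 (7.47) in the dimmer Dusp10 probe set, while the Dusp7 probe sets differ from each other.

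Compared directly, no gene of the 8 differed between GC B1-8 and GC V23 by limma after adjustment (0 higher and 0 lower), a comparison in which 0.00581% of all genes were called higher and 0.0174% lower. At an unadjusted p under 0.05, 2 of the 8 were higher in B1-8 and 0 lower, beside 4.78% and 2.94% of all genes. These were Dusp6, at 0.62 ± 0.20 (95% interval 0.15 to 1.08, adjusted p = 0.558), and Dusp10, at 0.45 ± 0.16 (0.09 to 0.82, adjusted p = 0.565). In each the 3 B1-8 arrays lay above the 3 V23 arrays, a separation for which no share of all genes is given. The intervals of the other 6 included 0. They were narrowest for Dusp2 (-0.25 to 0.22) and Dusp16 (-0.31 to 0.32) and widest for Dusp5 (-1.13 to 0.36). With these brightest probe sets, a difference of 2-fold was outside the interval for Dusp2, Dusp4, Dusp16, Dusp1 and Dusp7 but not for Dusp5. The Dusp7 probe set 1452097_a_at, above log2 4 on every array, was at -0.61 ± 0.56, so the bound does not hold over the Dusp7 probe sets. The other Dusp16 probe set lies mostly below log2 4 on GC arrays. No difference between the lines is given for it, and the Dusp16 bound does not extend to it.

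**Figure D4:**
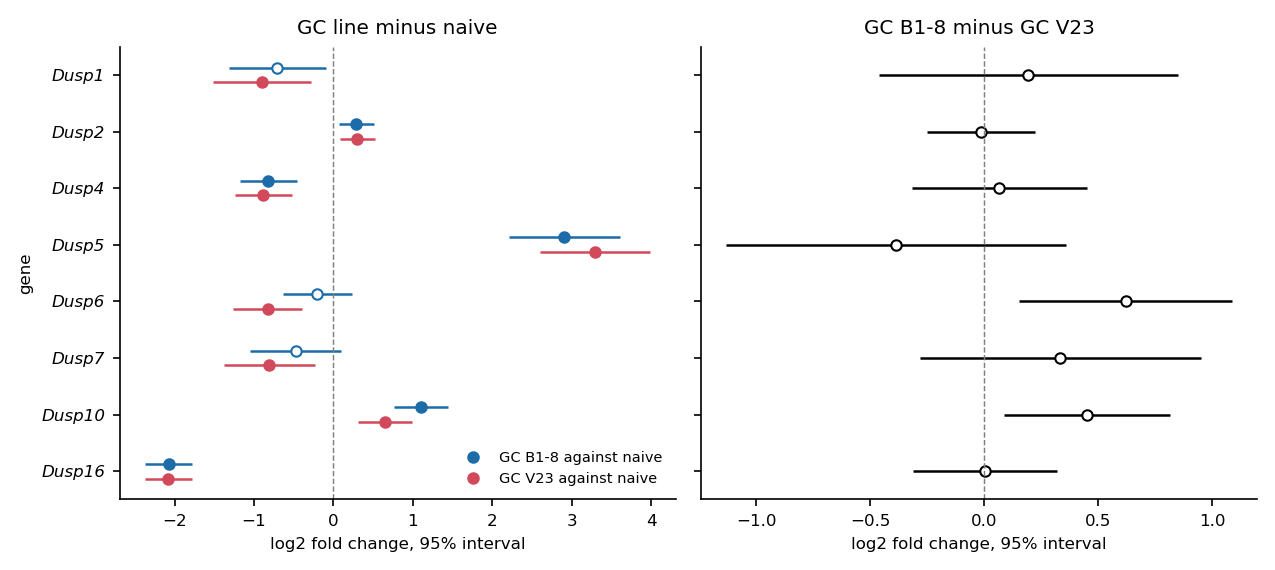
Log2 fold change with its 95% interval (limma) for each gene: GC B1-8 and GC V23 against naive (left) and GC B1-8 against GC V23 (right). Filled points passed an adjusted p of 0.05, and open points did not. Dusp5 and Dusp16 lie farthest from 0 on the left (3.30 and -2.08 in V23), and no point on the right is filled.

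The rest of the DUSP family was listed with these genes as background. For comparison with all list counts, 20.5% of all tested genes rose and 21% fell in the pooled comparison. Of 13 further members, 1 rose and 4 fell against naive in the pooled comparison, with a median of -0.27 (0.03 with quantile normalization and 0.04 where probe sets were averaged), and 2 fell without naive replicate 4. Dusp14, an atypical phosphatase without the kinase-binding domain, rose by 1.39 ± 0.17, from 6.45 ± 0.27 in naive to 7.81 ± 0.20 in B1-8 and 7.86 ± 0.34 in V23. Dusp3, another atypical member that acts on ERK and JNK, fell by 1.56 ± 0.18 with its brightest probe set (-0.37, adjusted p = 0.0587, where its probe sets were averaged). Dusp22 was at -0.43 ± 0.09 and Dusp12 at -0.48 ± 0.13, and the Dusp12 call ended without naive replicate 4 among other settings, with the sign turned where its probe sets were averaged (0.11, adjusted p = 0.565). Dusp8 (0.08 ± 0.18) and Dusp9 (0.06 ± 0.54), which complete the classical MAP kinase phosphatases, did not pass.

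Of the kinase cascade that these phosphatases oppose, 9 Ras-ERK genes were tested, and 4 fell and 0 rose (limma; 0 also at an unadjusted p under 0.05), with a median of -0.27 (3 and 0, and -0.12, where probe sets were averaged; -0.13 with quantile normalization). Araf, a Raf kinase, fell by 0.89 ± 0.09 (-1.42 where its probe sets were averaged) and Rasgrp1, a Ras activator, fell by 0.57 ± 0.10. Sos1 (-0.63 ± 0.08) and Rasgrp3 (-0.33 ± 0.06), also Ras activators, lost their calls where probe sets were averaged (-0.11 and -0.12, adjusted p = 0.608 and 0.376). The MEK kinases were close to their naive level, Map2k1 at 0.06 ± 0.08 and Map2k2 at 0.08 ± 0.08.

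Of 13 tested genes of the p38 and JNK cascade 2 were called higher and 2 lower by their brightest probe sets, with a median of 0.05, against 1 higher and 4 lower, with a median of -0.06, where probe sets were averaged. The upstream kinases Map3k1 and Map3k5 fell by 1.74 ± 0.15 and by 1.37 ± 0.07: Map3k5, which encodes ASK1, went from 11.98 ± 0.06 in naive to 10.68 ± 0.10 in B1-8 and 10.55 ± 0.07 in V23. Map2k3, which activates p38, rose by 0.40 ± 0.08. Mapk14, the main p38 kinase, was at -0.21 ± 0.09 (adjusted p = 0.114) with its brightest probe set and at -0.76 (adjusted p = 0.0189) where its probe sets were averaged, and passed in 5 of 19 alternatives. Mapk8, the JNK1 kinase, was at 0.48 ± 0.11 (adjusted p = 0.00592) with its brightest probe set and at -0.35 (adjusted p = 0.0208) where its probe sets were averaged, so no direction is given for it.

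Inhibitors of Ras-ERK signalling outside the DUSP family included 5 of 11 genes that rose and 2 that fell, with a median of 0.35. Without naive replicate 1 these were 4 and 1, with a median of 0.03, and where probe sets were averaged 3 and 1, with a median of 0.08. Spred1, a membrane protein that restrains Ras and Raf, rose by 2.16 ± 0.17, from 6.16 ± 0.24 in naive to 7.96 ± 0.24 in B1-8 and 8.69 ± 0.33 in V23, and its relative Spred2 rose by 1.05 ± 0.15 (0.66 where its probe sets were averaged). Dok3, an inhibitory adaptor of the antigen receptor, fell by 0.53 ± 0.09. Nf1, a Ras GTPase activating protein, was at 0.43 ± 0.09 but at -0.08 (adjusted p = 0.811) where its probe sets were averaged.

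Of 12 genes that respond to ERK, 3 rose and 4 fell, beside 20.5% and 21% of all tested genes. Their median was 0.19 (3 and 3, and 0.07, where probe sets were averaged). Single arrays moved that median, to 0.05 without V23 replicate 1, 0.07 without B1-8 replicate 2 and 0.11 without naive replicate 2, while the counts stayed at 3 and 4. Egr1 rose by 1.29 ± 0.09, from 11.05 ± 0.05 in naive to 12.48 ± 0.16 in B1-8 and 12.20 ± 0.14 in V23, and Egr2 rose by 1.01 ± 0.14. Fosb fell by 0.85 ± 0.13 and Myc fell by 0.70 ± 0.15. Egr3 fell by 1.63 ± 0.11 with its brightest probe set (-0.60, adjusted p = 0.185, where its probe sets were averaged). In none of these pathway lists, and in none of the handling genes, did a gene differ between the lines by limma after adjustment (0 higher and 0 lower in each). At an unadjusted p under 0.05, Araf, Map2k1, Egr1, Egr3 and Dusp26 were higher and Spred1 was lower in B1-8 (-0.73 ± 0.21, adjusted p = 0.503).

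**Figure D5:**
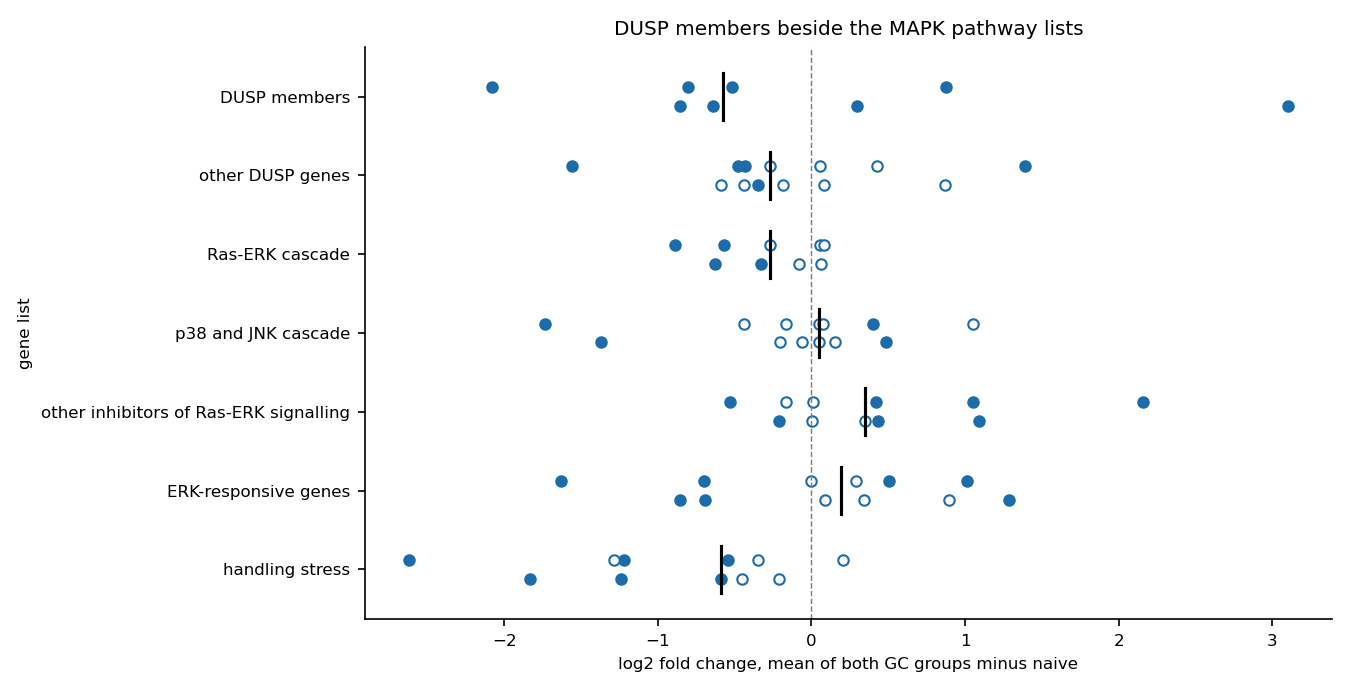
Log2 fold change of the averaged GC groups over naive (horizontal axis) for the 8 genes and for 6 lists; each point is a gene, filled where the adjusted p (limma) is below 0.05, and the black bar is the list median. The 8 genes spread from -2.08 (Dusp16) to 3.10 (Dusp5) around a median of -0.58.

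Each gene was also set beside other tested genes by the Pearson correlation of log2 signal over the 10 arrays. The 8 genes themselves and genes shown by a probe set with a name ending in _x_at were left out of this search. The separation of GC from naive arrays dominates this likeness, and no test is given for it. Dusp5 was closest to Cep192 (r = 0.993), a centrosome protein, and to Dbf4 (0.993), the activator of the replication kinase Cdc7, which rose from 9.97 ± 0.19 to 11.78 ± 0.15 in B1-8 and 12.01 ± 0.20 in V23. Dusp16 was closest to the interferon-induced gene Ifi35 (0.997) and to Zfp946 (0.995). Dusp10 was closest to the transcription factor gene Zbtb20 (0.994), which had the same order of groups (10.34 ± 0.29 in naive, 11.51 ± 0.05 in B1-8, 11.06 ± 0.23 in V23), and to Sh3pxd2a (0.977). Dusp4 was closest to Gigyf2 (0.98) and B3gnt2 (0.972), Dusp2 to Cchcr1 (0.977) and Ttpal (0.974), Dusp1 to Dnajc5 (0.962) and Arid1a (0.958), Dusp6 to Gp9 (0.962; at 3.38 ± 0.16 in V23, below log2 4) and Gnpda2 (0.958), and Dusp7 to Ampd3 (0.946) and Sgsm2 (0.927).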

How the data were processed

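Gene expression was measured on 10 arrays: naive (n = 4), GC B1-8 (n = 3) and GC V23 (n = 3). The authors deposited log2 signals, 1 per probe set and array. GCRMA is named, without a version, in the submitters' processing notes, but the values have no floor, and their unlogged mean after trimming 2% at each end is 500 on every array, as in signals scaled to a fixed target. No further normalization was applied. Of 45101 probe sets, 34958 carry 1 gene symbol, 932 several and 9211 none in GEO's annotation. Each symbol was represented by the brightest of its own probe sets (largest mean of the 10 arrays), and genes above log2 4 on at least 3 arrays were tested (17204).

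The test was that of limma 3.58.1 under R 4.3.3: group means over all 10 arrays, empirical Bayes moderation (7 residual and 1.46 prior degrees of freedom), two-sided, Benjamini-Hochberg adjustment over all genes within a comparison, threshold 0.05. It was tested on simulated data first. Arrays give no counts, and their number limits the precision. The genes and lists were chosen with earlier results of these data known. Named are all 8 DUSP genes, up to 4 called genes with the smallest p in each pathway list, Mapk14, Mapk8, Egr1 and Myc, and the 2 genes most correlated with each DUSP gene; Dusp8, Dusp9, Map2k1, Map2k2, Hspa1b and the genes with an unadjusted difference between lines were named after their values were seen. Promoter windows are the bases before RefSeq start sites, searched on both strands. Alternatives covered the filter, probe set choice, a floor at log2 4, both quantile normalization and median centring, array weights, robust moderation with an intensity trend, pairwise fits, a replicate block, and single arrays left out. The joint removal of naive replicates 2 and 4 was added after seeing the data.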

Additional observations from a re-analysis of the deposited data

How the results depend on the processing

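Over 632 alternative values of the 8 genes' differences, 539 kept direction and side of the threshold, 75 lost a call, 8 gained one and 10 changed sign; all 10 were differences between the lines that had not passed the test. With quantile normalization the number of the 8 genes that fell went from 5 to 3 in GC V23 and from 5 to 2 for both GC groups, and with median centring to 3 in each. Leaving out each array in turn gave 3 to 5 in V23 and 2 to 5 for both groups. Without naive replicates 2 and 4 the number that fell in B1-8 went from 2 to 4. The number that rose against naive was 2 or 3 under each alternative run. Centring moved the median difference of all genes in V23 from 0.06 to 0.19, and the calls in V23 from 3127 higher and 3386 lower to 3823 and 2535 (both GC groups: 4165 and 2908; B1-8: 3042 and 2406), while quantile normalization gave 3747 and 2951 in V23. With the replicate block, in which naive replicate 4 has a block of its own and no longer weighs on the comparison, 3 genes fell for both GC groups, and the pooled calls of Dusp2 (adjusted p = 0.0856), Dusp6 (0.0699) and Dusp7 (0.121) were lost. The replicate numbers are not shown to pair samples: deviations of same-numbered B1-8 and V23 arrays correlated at 0.07, 0.01 and -0.01. The B1-8 minus V23 differences that changed sign were those of Dusp2 (-0.01; 0.0071 with quantile normalization, 0.0072 with array weights, and -0.060 to 0.066 with single arrays left out), Dusp4 (0.07; -0.029 with quantile normalization) and Dusp16 (0.0045; -0.055 with quantile normalization, -0.057 with median centring, and -0.045 to 0.049 with single arrays left out). The cause of these changes was not tested. Values below log2 4, where the signal is near background, limit 1 of the 3 probe sets of Dusp7 and the dimmer probe set of Dusp16.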
